A study of Mus musculus with 12 samples.

Results

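The adult globin genes and the erythroid heme enzyme were followed in RNA sequencing of mouse sensory ganglia. The members are the alpha globins Hba-a1 and Hba-a2, the beta globins Hbb-bs and Hbb-bt, and Alas2. They were chosen by name, through the gene identifiers of the tables, and all 5 were found among 13178 genes of the AAV table and among 21650 genes of the ribose table. Every library came from neurons of the L4-6 dorsal root ganglia, taken 72 h after spinal cord injury from C57BL/6J mice of 8 weeks, so the control groups carried the injury too. AAV-GFP and AAV-TKT mice had received an adeno-associated virus through the sciatic nerve for 4 weeks, carrying green fluorescent protein or transketolase, an enzyme of the pentose phosphate pathway. Vehicle and Ribose mice received vehicle or 10% ribose, a pentose sugar. Each of the 4 groups held 3 libraries. What drives the transgene, which cells the virus reached and whether replicates came from separate animals is not given in the sources used here. If replicates shared animals, p-values reflect the spread of these samples alone, which may be technical.

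Hemoglobin carries oxygen in red cells and joins alpha chains, encoded on chromosome 11, with beta chains, encoded on chromosome 7, around heme groups. Mice of the C57BL/6J strain carry the beta globin genes Hbb-bs and Hbb-bt. ALAS2, encoded by Alas2 on the X chromosome, is the erythroid form of 5-aminolevulinate synthase, which makes the first intermediate of heme in mitochondria, while ALAS1 does so in other cells. Mature red cells lack a nucleus, and young ones, the reticulocytes, still hold globin messenger RNA. In a ganglion these cells lie in blood vessels. In bulk RNA, fewer cells of a type and less RNA per cell cannot be told apart.

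The labelled tissue was checked first. All 12 neuron markers of a chosen list were listed in both tables, with values in FPKM (fragments scaled to transcript length and to the size of the library). They summed to 8224 to 9335 FPKM in AAV-GFP and 9887 to 10972 FPKM in AAV-TKT, without overlap, and to 8302 to 10200 FPKM in Vehicle and 8492 to 8926 FPKM in Ribose. Markers of glia, fibroblasts and blood cells were listed as well. FPKM totals ran from 413635 to 456084 in the AAV libraries and from 510551 to 551370 in the ribose libraries. The depth of the AAV libraries is unknown. Steps among the low values of the ribose table gave estimated relative depths of 1.00 to 1.34 in Vehicle and of 0.757 to 0.906 in Ribose. These rest on 470 of 14231 ratios between low values (3.30%) and are rough. Genes listed at 0 made up 5.76% to 14.5% of the ribose table.

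The sequences of the gene copies bear on how far their values can be read apart. On GRCm38 with GENCODE M21, Hba-a1 (ENSMUSG00000069919) spans chr11:32283511-32284465 and Hba-a2 (ENSMUSG00000069917) chr11:32296489-32297298, both on the plus strand. Hbb-bs (ENSMUSG00000052305) spans chr7:103826534-103828096 and Hbb-bt (ENSMUSG00000073940) chr7:103812524-103813996, both on the minus strand. Each globin gene has 3 exons in its main transcript. The 426 coding bases of the alpha copies differ at 1 position, C381T, and the 441 coding bases of the beta copies differ at 1 position, C417T, counted from 1 at the A of the start codon, with the base of Hba-a1 or Hbb-bs first. The stretches of coding sequence around these positions, taken from GENCODE M21, are shown 5′ to 3′ with the differing base in capitals.
Hba-a1: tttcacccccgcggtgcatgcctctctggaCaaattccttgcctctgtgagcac
Hba-a2: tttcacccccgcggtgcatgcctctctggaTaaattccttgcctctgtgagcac
Hbb-bs: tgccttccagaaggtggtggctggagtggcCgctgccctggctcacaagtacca
Hbb-bt: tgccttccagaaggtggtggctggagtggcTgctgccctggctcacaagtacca
Words of 31 bases from the main Hba-a2 transcript occurred in Hba-a1 in 91.0% of cases, and words from the main Hbb-bs transcript occurred in Hbb-bt in 66.9%. In the 4 comparisons of an alpha with a beta gene, 0 words were shared. The division of reads between copies of a pair is therefore uncertain, whereas the main transcripts of the alpha pair share no such words with those of the beta pair. Alas2 (ENSMUSG00000025270) spans chrX:150547375-150570638 on the plus strand with 11 exons. It lies wholly inside Apex2, a gene on the opposite strand that was listed at 1.59 to 3.38 FPKM in all 12 libraries. The library kit kept strand, but the counting setting is not given in the sources used here, so Apex2 reads counted for Alas2 were not tested.

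The promoters of the members are shown as the 250 bases before the RefSeq start, from the RefSeq table of GRCm38.p6. Some GENCODE transcripts begin further upstream. Capitals mark 4 short motifs or their reverse complements, searched on both strands with overlaps kept. The core of GATA factor sites was searched as GATAA. The CACCC box was searched by the letters of its name, and so was the CCAAT box. For the TATA box the letters were TATAA.
Hba-a1, chr11:32283422-32283671, plus strand: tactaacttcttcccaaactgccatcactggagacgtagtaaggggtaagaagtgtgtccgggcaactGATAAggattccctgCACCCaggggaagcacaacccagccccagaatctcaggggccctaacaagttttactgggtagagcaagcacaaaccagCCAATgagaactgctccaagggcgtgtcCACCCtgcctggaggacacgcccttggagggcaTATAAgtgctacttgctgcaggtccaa
Hbb-bs, chr7:103827929-103828178, minus strand: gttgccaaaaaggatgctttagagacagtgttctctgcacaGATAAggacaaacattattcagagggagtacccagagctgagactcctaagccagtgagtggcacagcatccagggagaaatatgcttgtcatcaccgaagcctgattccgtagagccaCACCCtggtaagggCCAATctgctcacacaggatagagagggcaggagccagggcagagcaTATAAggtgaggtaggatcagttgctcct
Hbb-bt, chr7:103813924-103814173, minus strand: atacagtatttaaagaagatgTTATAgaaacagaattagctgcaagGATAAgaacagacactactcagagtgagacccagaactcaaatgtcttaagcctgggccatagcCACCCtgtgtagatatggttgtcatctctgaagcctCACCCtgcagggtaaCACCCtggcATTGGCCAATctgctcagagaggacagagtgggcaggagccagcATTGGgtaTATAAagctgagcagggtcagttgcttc
Alas2, chrX:150547167-150547416, plus strand: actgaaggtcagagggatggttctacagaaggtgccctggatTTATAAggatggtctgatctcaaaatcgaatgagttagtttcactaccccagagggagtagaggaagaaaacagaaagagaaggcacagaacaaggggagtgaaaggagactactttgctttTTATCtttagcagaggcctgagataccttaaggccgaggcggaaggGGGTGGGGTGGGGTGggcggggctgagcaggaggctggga
The Hba-a2 entry of the RefSeq table, which runs past the start, matched that of Hba-a1 at 297 of 297 bases when shifted by 3 bases, so its promoter is not repeated. GATAA was present in 5 of 5 members, against 22.6% of 32851 mouse promoters of the same length. CACCC was also present in 5 of 5, against 52.0% of promoters, and both motifs together stood in 10.1% of promoters. CCAAT occurred in the 4 globin genes and not in the Alas2 window, against 33.8% of promoters. TATAA was found in 5 of 5 members, against 22.8% of promoters, beginning between 27 and 30 bases before the start in the globin genes and 207 bases before it in Alas2. Such letter matches describe the sequences and do not show binding.

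In the AAV experiment, all 5 members were lower in AAV-TKT than in AAV-GFP, by 3.64-fold to 5.57-fold in mean FPKM, and no library of one group overlapped the other. No member passed the limma test over all genes, and the AAV-GFP libraries differed widely among themselves. Globin transcripts summed to 373, 112 and 468 FPKM in AAV-GFP replicates 1, 2 and 3, and to 78.2, 71.2 and 93.6 FPKM in AAV-TKT replicates 1, 2 and 3. AAV-GFP replicate 2 thus lay much closer to the AAV-TKT libraries than to the other AAV-GFP libraries.

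Of the alpha globins, Hba-a2 stood at 146, 48.3 and 182 FPKM in AAV-GFP and at 33.1, 28.5 and 37.5 FPKM in AAV-TKT. Hba-a1 stood at 86.0, 25.6 and 106 FPKM in AAV-GFP and at 17.2, 14.2 and 20.2 FPKM in AAV-TKT. Hba-a2 exceeded Hba-a1 in each of these libraries. On the log2(FPKM + 1) scale, which understates differences of low genes, Hba-a2 differed by -1.70 (SE 0.441, 95% interval -2.73 to -0.67, limma adjusted p = 0.378). Hba-a1 differed by -1.80 (SE 0.474, 95% interval -2.90 to -0.69, limma adjusted p = 0.378).

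Of the beta globins, Hbb-bs stood at 115, 31.9 and 142 FPKM in AAV-GFP and at 24.1, 24.9 and 30.4 FPKM in AAV-TKT. Hbb-bt, the less abundant copy, stood at 26.4, 6.25 and 38.3 FPKM in AAV-GFP and at 3.87, 3.49 and 5.38 FPKM in AAV-TKT. The gap between the groups was narrow for Hbb-bs, at 31.9 against 30.4 FPKM. Hbb-bs differed by -1.58 (SE 0.496, 95% interval -2.74 to -0.42, limma adjusted p = 0.388) and Hbb-bt by -1.94 (SE 0.561, 95% interval -3.25 to -0.62, limma adjusted p = 0.378).

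The heme enzyme gene Alas2 was far less abundant, at 2.73, 0.680 and 2.98 FPKM in AAV-GFP and at 0.209, 0.375 and 0.598 FPKM in AAV-TKT. Its order over libraries resembled that of the globins, with AAV-GFP replicate 2 just above the highest AAV-TKT library. The log2 difference was -1.08 (SE 0.330, 95% interval -1.85 to -0.30, limma adjusted p = 0.383). Alas2 averaged 0.394 FPKM in AAV-TKT, so it met the mean of 1 FPKM of the AAV table through AAV-GFP.

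With limma at an adjusted p of 0.05, 0 of 5 members were called lower in AAV-TKT, against 0.00759% of all 13178 genes. At an unadjusted limma p under 0.05 all 5 were lower, and 1395 of 13178 genes reached that level in either direction. The groups did not overlap, with AAV-TKT lower, for 5 of 5 members and for 7.2% of all genes. Of these members, Alas2 was listed through its AAV-GFP values, which favours separated groups. The members varied together in this table at Pearson's r of 0.987 to 0.9997, so these counts are not 5 separate observations. Ordered from the most negative log2 difference, Hbb-bt was 19th, Hba-a1 26th, Hba-a2 34th, Hbb-bs 43rd and Alas2 97th of 13178. The place of Alas2 depends on the pseudocount, since its log2 difference was -2.02 with a pseudocount of 0.1 (limma adjusted p = 0.376), beside -1.84 for Hba-a1. Without AAV-GFP replicate 2 all 5 members passed, with log2 differences of -2.41 for Hba-a1, -2.28 for Hba-a2, -2.24 for Hbb-bs, -2.66 for Hbb-bt and -1.48 for Alas2, and limma adjusted p between 0.00614 and 0.0427. Over all genes 38 were then called lower, against 1 with that library. No other single omission took a member past the threshold.

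**Figure D1:**
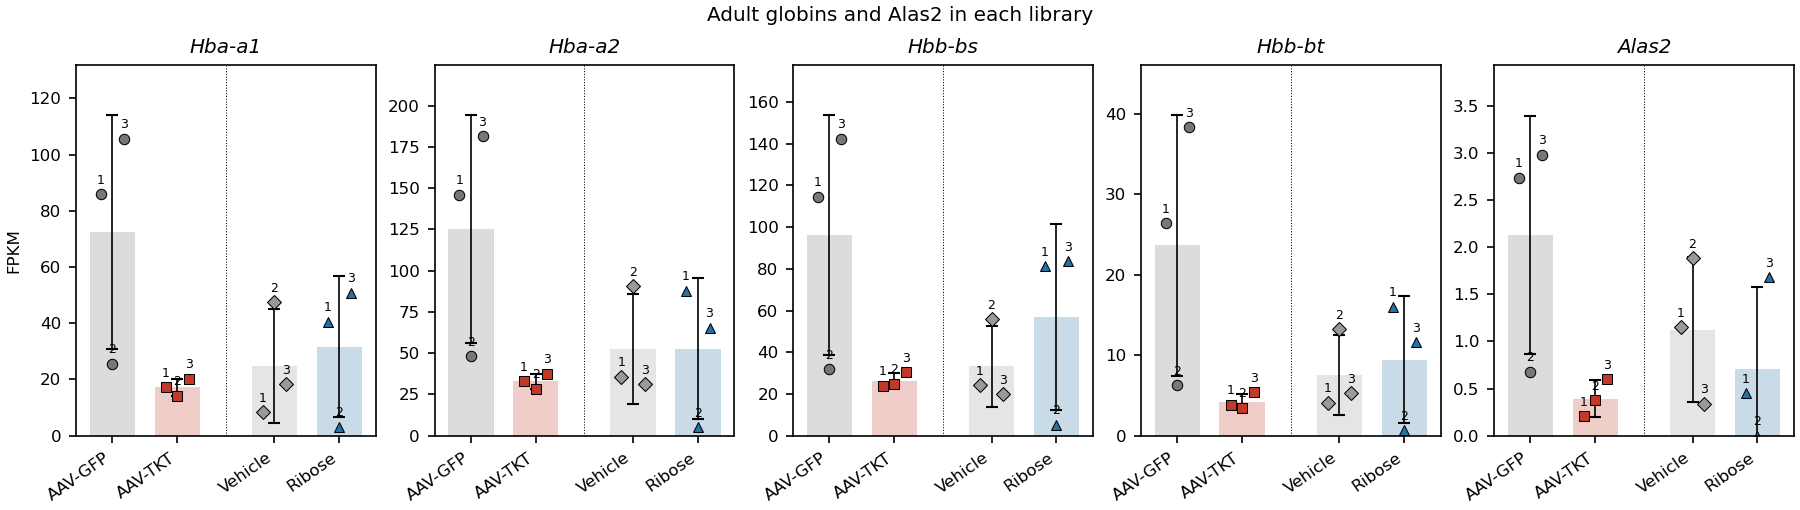
FPKM of each member (vertical axis, linear) by group, with replicate numbers beside the points, bars at the group mean and error bars of 1 SD (n = 3); a dotted line separates the AAV and ribose tables, whose levels are not compared. Every AAV-TKT library lies below every AAV-GFP library, while Vehicle and Ribose libraries overlap for each member.

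In the ribose experiment the members did not separate the groups, and the libraries of each group spread more widely than the groups differed. Globin transcripts summed to 72.3, 207 and 74.7 FPKM in Vehicle replicates 1, 2 and 3 and to 226, 14.4 and 212 FPKM in Ribose replicates 1, 2 and 3. Ribose replicate 2 was thus the lowest of the 6 libraries and Ribose replicate 1 the highest.

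Hba-a2 stood at 35.7, 90.7 and 31.05 FPKM in Vehicle and at 87.9, 5.16 and 65.4 FPKM in Ribose. Hba-a1 stood at 8.43, 47.5 and 18.4 FPKM in Vehicle and at 40.6, 3.22 and 50.9 FPKM in Ribose. The groups overlapped for both alpha globins, with Vehicle replicate 2 high and Ribose replicate 2 low. The log2 difference, Ribose minus Vehicle, was -0.52 for Hba-a2 (SE 0.973, 95% interval -2.80 to 1.76) and 0.01 for Hba-a1 (SE 1.00, 95% interval -2.33 to 2.36).

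Hbb-bs stood at 24.1, 55.7 and 20.02 FPKM in Vehicle and at 81.4, 5.31 and 83.7 FPKM in Ribose. Hbb-bt stood at 4.09, 13.3 and 5.25 FPKM in Vehicle and at 16.0, 0.672 and 11.6 FPKM in Ribose. Ribose replicates 1 and 3 lay above every Vehicle library for Hbb-bs, and Ribose replicate 2 lay below every one. The log2 difference was 0.19 for Hbb-bs (SE 0.979, 95% interval -2.11 to 2.48) and -0.11 for Hbb-bt (SE 0.860, 95% interval -2.13 to 1.90).

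Alas2 stood at 1.15, 1.88 and 0.340 FPKM in Vehicle and at 0.453 and 1.68 FPKM in Ribose replicates 1 and 3, and was listed at 0 in Ribose replicate 2. Its mean over the table was under 1 FPKM, so 4 of 5 members entered the test. In the fit with no filter its log2 difference was -0.36 (limma adjusted p = 0.963).

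With limma, 0 of 4 tested members were called in either direction, against 0.00724% of all 13804 genes, and 0 of 4 had an unadjusted p under 0.05, against 661 genes in all. Groups that did not overlap made up 5.35% of genes with Ribose lower and 4.28% with Ribose higher, and 0 of 4 members were among them. The intervals include the log2 differences found for the same genes in the AAV experiment. Without Ribose replicate 2 the log2 differences were 1.17 for Hba-a1, 0.69 for Hba-a2, 1.43 for Hbb-bs and 0.93 for Hbb-bt, and limma adjusted p lay between 0.570 and 0.846. That omission turned the sign of Hba-a2 and Hbb-bt. The sign of Hbb-bt also turned without Vehicle replicate 2, that of Hba-a1 without Vehicle replicate 1 or 3 or Ribose replicate 1 or 3, and that of Hbb-bs without Vehicle replicate 3 or Ribose replicate 1 or 3.

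The difference between the AAV-TKT effect and the Ribose effect was tested in 1 limma model over 12853 genes of both tables. It was -1.81 for Hba-a1, -1.18 for Hba-a2, -1.77 for Hbb-bs and -1.82 for Hbb-bt on the log2 scale, with SEs of 1.15 to 1.25 and limma adjusted p of 0.821 to 0.911. Of these 4 members 0 were called, against 0.00778% of genes in either direction. Leaving out Ribose replicate 2 gave -2.96, -2.39, -3.01 and -2.87, and leaving out Ribose replicate 3 gave -1.15, -0.67, -1.13 and -1.41, in the same order of genes. Without Ribose replicate 1 the differences were -1.31, -0.46, -1.15 and -1.19. No single omission took a member past the threshold. The effects of the treatments on the globins were thus not shown to differ.

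**Figure D2:**
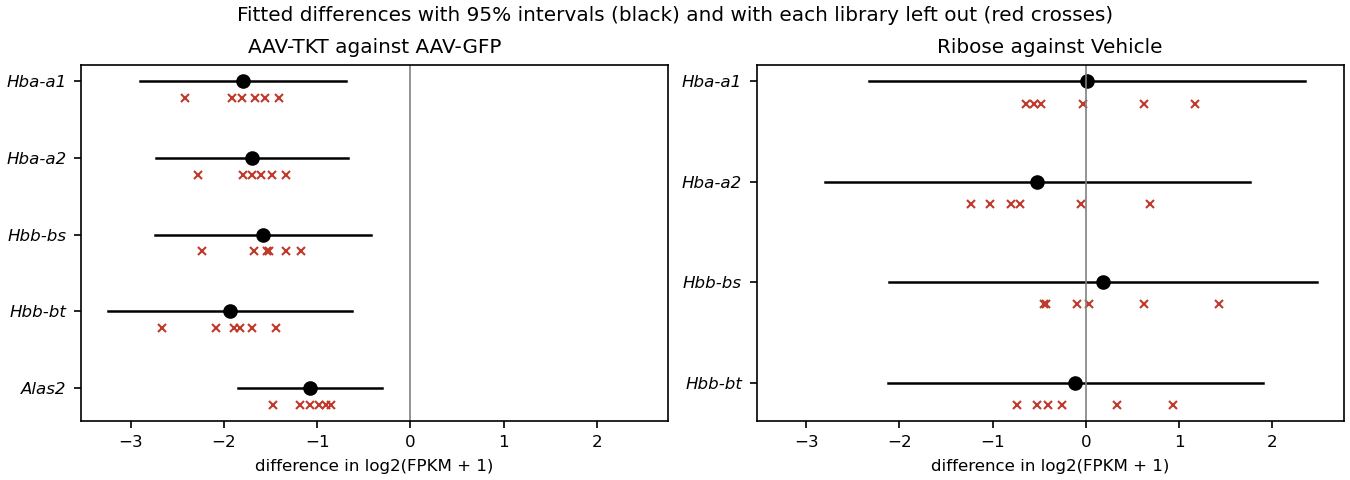
Log2 differences of the members (treated minus control on log2(FPKM + 1)) as black points with 95% limma intervals, and red crosses for the same difference with each library left out, for AAV-TKT against AAV-GFP and for Ribose against Vehicle. The AAV-TKT intervals lie below 0 for all 5 members, none of which passed after adjustment, and the wider Ribose intervals include 0 for the 4 tested members.

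While globin totals varied widely, the balance between alpha and beta globin transcripts varied less. Between the lowest and the highest library the globin sum ranged over 6.58-fold in the AAV table and over 15.7-fold in the ribose table. The ratio of the alpha sum to the beta sum, which does not depend on library scaling, ranged over 1.29-fold and 1.64-fold. It was 1.65, 1.93 and 1.59 in AAV-GFP and 1.80, 1.504 and 1.61 in AAV-TKT. These groups overlapped, and the mean log2 ratio differed by -0.07 (two-sided exact permutation p = 0.6). Without AAV-GFP replicate 2 that difference was 0.015.

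In the ribose table the ratio was 1.56, 2.00 and 1.96 in Vehicle and 1.32, 1.40 and 1.22 in Ribose. Every Ribose library lay below every Vehicle library, including Ribose replicate 2 with its low globin sum. The mean log2 ratio was 0.87 ± 0.20 in Vehicle and 0.39 ± 0.10 in Ribose (SD, n = 3 each), a difference of -0.48. The two-sided exact permutation p of 0.1 is the smallest that 3 against 3 libraries allow, and it became 0.32 after Benjamini-Hochberg adjustment over 8 ratio tests. Leaving out single libraries kept the difference between -0.59 and -0.42. With the more abundant copy of each pair alone, Hba-a2 against Hbb-bs, it was -0.73.

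The division within each pair was also followed, within the limit set by the near-identical copies. Hbb-bt made up 18.7%, 16.4% and 21.2% of beta globin FPKM in AAV-GFP and 13.9%, 12.3% and 15.0% in AAV-TKT. These groups did not overlap, and the mean share was 5.04 points lower in AAV-TKT (two-sided exact permutation p = 0.1, adjusted p = 0.32). The Hbb-bt share of the ribose libraries was 14.5%, 19.2% and 20.8% in Vehicle and 16.4%, 11.2% and 12.2% in Ribose, and the groups overlapped (exact permutation p = 0.2). Hba-a1 made up 33.3% to 37.0% of alpha globin FPKM in the 6 AAV libraries. Its share was less even in the ribose table, at 19.1%, 34.4% and 37.2% in Vehicle and 31.6%, 38.5% and 43.7% in Ribose (exact permutation p = 0.4).

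Set against the globins, Alas2 stood at 7.33, 6.07 and 6.37 FPKM per 1000 FPKM of globin in AAV-GFP and at 2.67, 5.27 and 6.40 in AAV-TKT. AAV-TKT replicate 1 was low and AAV-TKT replicate 3 lay within the AAV-GFP range (exact permutation p = 0.3). In the ribose table the ratio was 15.9, 9.08 and 4.55 in Vehicle and 2.01, 0 and 7.94 in Ribose, with overlap between the groups (exact permutation p = 0.2). At such low FPKM the precision of Alas2 is limited.

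**Figure D3:**
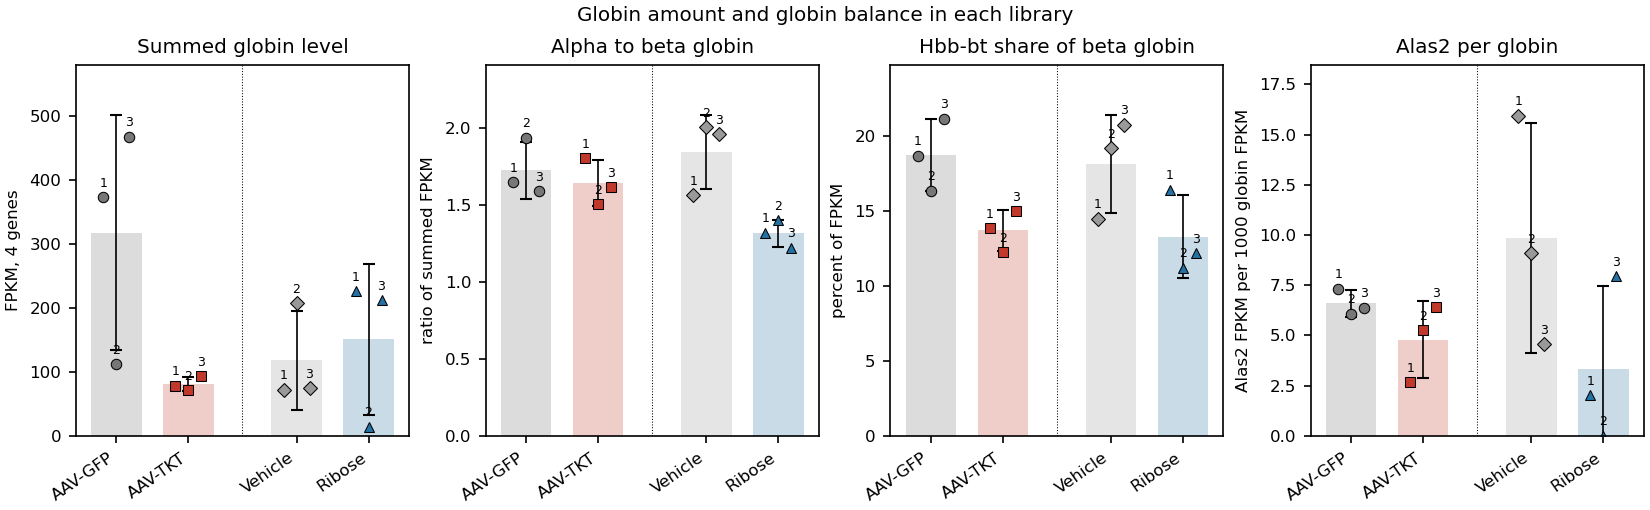
Globin sum, alpha to beta ratio, Hbb-bt share of beta globin and Alas2 per 1000 FPKM of globin in each library, with replicate numbers beside the points, bars at the group mean and error bars of 1 SD (n = 3). Globin sums run from 71.2 to 468 FPKM in the AAV table and from 14.4 to 226 FPKM in the ribose table, and in the alpha to beta ratio the 3 Ribose libraries lie below the 3 Vehicle libraries.

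Across the 6 AAV libraries the log2 levels of the members correlated with each other at Pearson's r of 0.987 to 0.9997. In the 6 ribose libraries r was 0.925 to 0.982 among the globins and 0.654 to 0.734 between Alas2 and the globins. These values describe libraries that share their groups, depth and, for copies of a pair, reads.

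In the AAV experiment the other genes of heme synthesis differed less in size than Alas2. All 15 other heme synthesis and mitochondrial carrier genes of a chosen list were tested, and 0 passed, 7 with a positive and 8 with a negative log2 difference. Their median was -0.0027, beside 0.014 for all genes. The groups did not overlap, with AAV-TKT higher, for 3 of the 15, Slc25a39, Slc25a38 and Alad, against 11.3% of all genes. With AAV-TKT lower, 0 of the 15 were separated, against 7.2% of all genes. Alas1, the form of the first enzyme outside red cells, stood at 37.5, 40.5 and 32.0 FPKM in AAV-GFP and at 32.9, 39.5 and 33.9 FPKM in AAV-TKT. Alad, the next enzyme, stood at 9.99 ± 0.813 and 11.6 ± 0.475 FPKM (SD, n = 3), with a log2 difference of 0.20. The mitochondrial carriers Slc25a39 and Slc25a38 had log2 differences of 0.16 and 0.16. The mitochondrial iron importer gene Slc25a37, or mitoferrin-1, is known for its role in red-cell precursors and had a log2 difference of -0.40 (limma adjusted p = 0.505).

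In the ribose experiment 0 of the 15 heme genes passed, again 7 positive and 8 negative, with a median of -0.03, beside -0.02 for all genes. Slc25a39 stood at 62.3 ± 3.90 FPKM in Vehicle and 48.4 ± 4.64 FPKM in Ribose (SD, n = 3) without overlap, a log2 difference of -0.36 (limma adjusted p = 0.957). Alas1 was at 35.9 ± 7.03 and 36.0 ± 1.05 FPKM. Alad differed by -0.49, Cpox, which encodes coproporphyrinogen oxidase, by -0.37 and Slc25a37 by 0.51, each with overlapping groups.

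Among genes of heme breakdown and iron handling, 16 of 19 were tested in the AAV experiment and 0 passed, with a median of -0.05. Hp, encoding haptoglobin, which binds free hemoglobin, stood at 3.28, 1.62 and 4.31 FPKM in AAV-GFP and at 0.428, 0.307 and 0.798 FPKM in AAV-TKT. Its groups did not overlap, and its log2 difference was -1.38 (SE 0.269, limma adjusted p = 0.324). Like Alas2, Hp was listed in the AAV table through its AAV-GFP values. Hmox1, the inducible heme oxygenase that breaks heme down, stood at 13.7 ± 1.99 and 9.89 ± 1.09 FPKM (SD, n = 3), a log2 difference of -0.43. Hmox2, the constitutive form, stood at 53.6 ± 1.98 and 63.1 ± 4.04 FPKM, a log2 difference of 0.23. Hmox1 and Hmox2 were separated between the groups in opposite directions, and the copper ferroxidase gene Cp differed by -0.46 with overlap.

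The ribose table allowed tests of 17 of the 19, and 0 passed, with a median of -0.02. The ferritin heavy chain gene Fth1, encoding part of the iron store of cells, stood at 522 ± 62.1 FPKM in Vehicle and 425 ± 7.38 FPKM in Ribose (SD, n = 3), a log2 difference of -0.29 without overlap. The largest of the named differences was -0.67 for Cp, with overlapping groups.

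Other red-cell genes were scarce. Of 18 genes of the red-cell membrane and cytosol 3 were tested in the AAV experiment and 0 passed. Slc4a1, encoding band 3, the anion exchanger of the red-cell membrane, stood at 5.02, 0.604 and 5.28 FPKM in AAV-GFP and at 0.311, 0.376 and 0.281 FPKM in AAV-TKT. The groups were separated, AAV-GFP replicate 2 again lay near AAV-TKT, and the log2 difference was -1.57 (SE 0.490, limma adjusted p = 0.386). Like Alas2, Slc4a1 was listed in the AAV table through its AAV-GFP values. Bpgm, encoding the bisphosphoglycerate mutase of red cells, differed by -0.22 and Tmcc2 by 0.0091. Of 8 erythroid regulators only Lmo2, at -0.23, and Zfpm1, at -0.08, were tested. Gata1 and Klf1 were not analysed here.

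Of the 18 red-cell genes, 14 were listed in the ribose table and 2 reached a mean of 1 FPKM, Bpgm at 0.21 and Tmcc2 at 0.07, neither of which passed. Slc4a1 stood at 0.298, 1.69 and 0.0431 FPKM in Vehicle and at 1.068, 0 and 0.906 FPKM in Ribose, with Vehicle replicate 2 high and Ribose replicate 2 at 0. Of the 14 listed genes 7, 0 and 3 were at 0 in Vehicle replicates 1, 2 and 3, and 3, 9 and 7 in Ribose replicates 1, 2 and 3. The rough estimates of relative depth for the same libraries were 1.00, 1.24 and 1.34 in Vehicle and 0.757, 0.906 and 0.880 in Ribose. The part of depth in these counts was not tested.

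Among markers of white blood cells, neutrophil and macrophage sums were lower in every AAV-TKT than in every AAV-GFP library, as globin sums were, unlike lymphocyte sums. Both were also lowest in Ribose replicate 2 within the ribose table. That library was lowest too in Schwann cell, satellite glia and fibroblast markers, at 410, 300 and 16.0 FPKM. It was not lowest in neuron, endothelial, platelet or lymphocyte markers. AAV-GFP replicate 2, near AAV-TKT in globin, was less near it here, at 108 FPKM for neutrophil and 39.6 FPKM for macrophage markers. AAV-TKT replicate 2, lowest in globin of the AAV libraries, was the highest AAV-TKT library in neutrophil markers. The neutrophil list had 12 of 15 genes tested in the AAV experiment. With limma 0 of them passed, and their median log2 difference was -2.15. All 12 were lower without overlap, against 7.2% of all genes. Of these, Camp, Elane, Mpo, Mmp8 and Mmp9 averaged under 1 FPKM in AAV-TKT and were listed through their AAV-GFP values. The summed level of the 12 was 180, 108 and 284 FPKM in AAV-GFP and 22.5, 35.2 and 25.8 FPKM in AAV-TKT. For the ribose libraries 15 of 15 were listed and 10 tested, 0 passed, and the sums were 33.1, 186 and 36.7 FPKM in Vehicle and 132, 14.8 and 86.0 FPKM in Ribose. Vehicle replicate 2 was thus high and Ribose replicate 2 low, as for the globins. At most 2 neutrophil markers were at 0 in a library.

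Macrophage markers, 8 of 13 listed in the AAV table, summed to 39.6 to 53.2 FPKM in AAV-GFP and to 14.3 to 20.2 FPKM in AAV-TKT. Their median log2 difference was -0.66 and 0 passed the test, while 6 were separated with AAV-TKT lower, against 7.2% of all genes. For the ribose libraries 13 of 13 were listed, with sums of 16.7 to 40.4 FPKM in Vehicle and 5.76 to 39.4 FPKM in Ribose, and 6 of the 13 were at 0 in Ribose replicate 2. Lymphocyte markers, 2 of 12 listed in the AAV table, summed to 66.2, 113 and 35.7 FPKM in AAV-GFP and to 27.4, 144 and 29.0 FPKM in AAV-TKT, with replicate 2 highest in each group, and 0 passed. For the ribose libraries 7 were listed and 1 tested, which did not pass, and the sums were 9.29 to 10.3 FPKM in Vehicle and 8.31 to 12.1 FPKM in Ribose. The highest of these was Ribose replicate 2, the library lowest in globin.

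Sums of neuron and Schwann cell markers did not overlap between the AAV groups, those of fibroblasts and satellite glia did, and no marker passed. Of the 12 neuron markers 10 had a positive log2 difference, and the median was 0.21. The groups did not overlap for 7 of them with AAV-TKT higher and for 1 marker with AAV-TKT lower. Over all 13178 genes 7083 were positive, and 11.3% were separated with AAV-TKT higher. Schwann cell markers, 7 of 8 listed, were negative in 7 of 7, against 6095 of 13178 genes. Their sums were 424 to 445 FPKM in AAV-GFP and 352 to 384 FPKM in AAV-TKT. Fibroblast markers, 5 of 6 listed, were negative in 5 of 5 with 0 separated. Their sums were 26.1 to 54.98 FPKM in AAV-GFP and 23.7 to 28.8 FPKM in AAV-TKT. Satellite glia markers, 6 of 6 listed, had 4 negative and 2 positive differences. In the ribose experiment Schwann cell markers were negative in 7 of 7 and satellite glia markers in 6 of 6, against 7618 of 13804 genes. None of these markers passed, and 0 were separated. Fibroblast markers were positive in 3 of 5. Endothelial markers, 2 of 10 listed in the AAV table, summed to 25.2 to 30.04 FPKM in AAV-GFP and to 30.7 to 37.5 FPKM in AAV-TKT, the opposite order. All 10 were listed in the ribose table, at 29.9 to 52.9 FPKM in Vehicle and 34.1 to 47.9 FPKM in Ribose. Platelet markers, 2 of 10 listed in the AAV table, lay between 5.17 and 8.16 FPKM in its 6 libraries. The ribose table listed 6 of 10 platelet markers, at 3.71 to 6.21 FPKM in Vehicle and 6.00 to 9.16 FPKM in Ribose. The part of blood content, or of the mix of resident cells, in the globin differences was not tested.

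**Figure D4:**
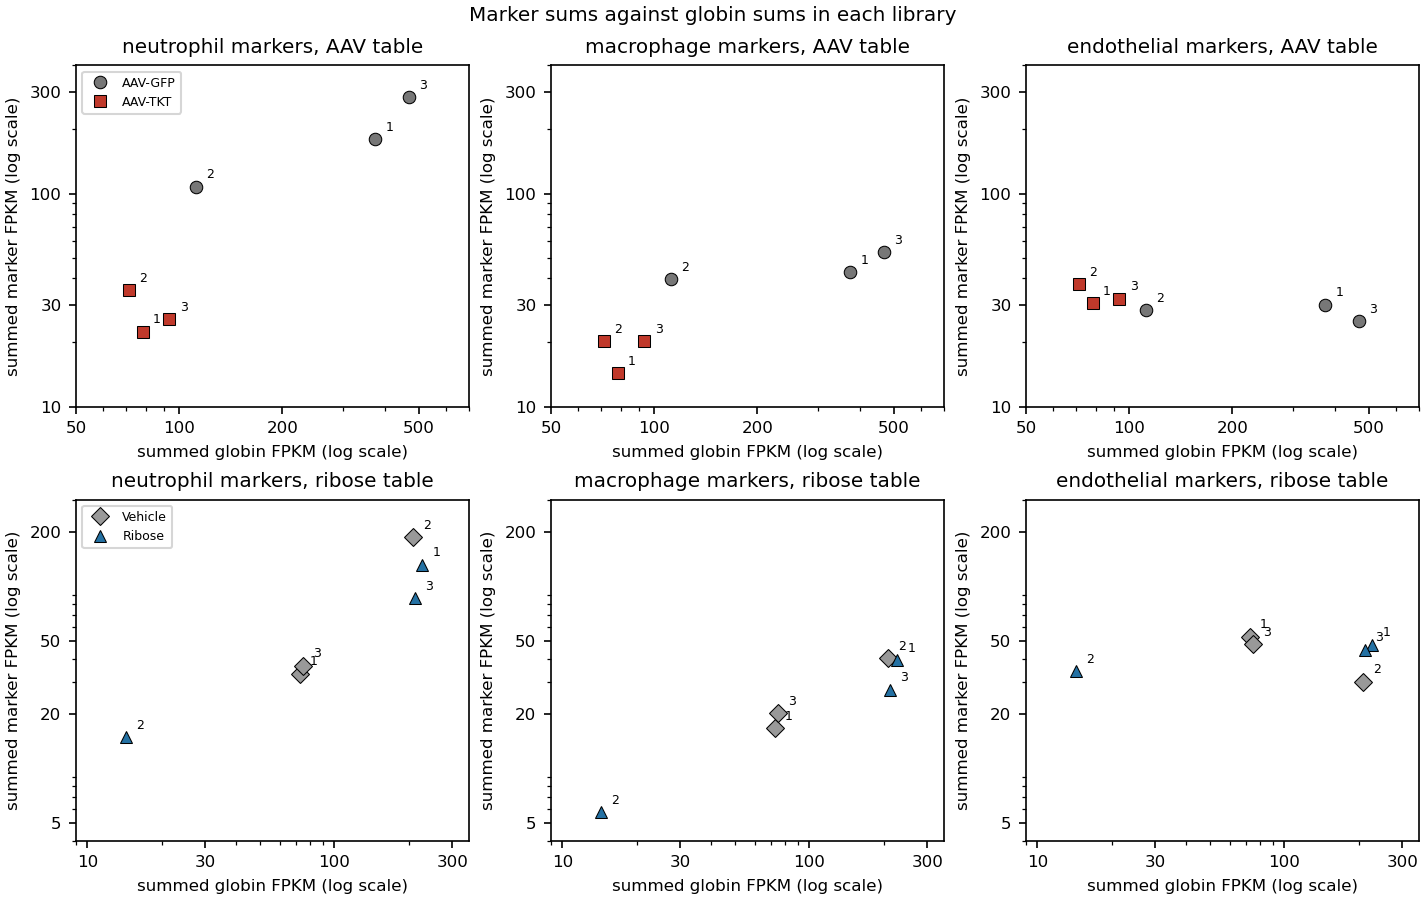
Summed FPKM of neutrophil, macrophage and endothelial markers (vertical axis, log scale) against summed globin FPKM (horizontal axis, log scale) in each library, AAV table above and ribose table below, with replicate numbers beside the points. The AAV library highest in globin, AAV-GFP replicate 3 at 468 FPKM, is also highest in neutrophil markers at 284 FPKM, and the ribose library lowest in globin, Ribose replicate 2 at 14.4 FPKM, is lowest in them at 14.8 FPKM, while endothelial markers do not follow that order.

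The genes most like the globins across libraries were then sought. Of 258 genes with a mean of 1 FPKM or more and an SD of at least 0.5 on the log2 scale in both tables, likeness to the mean log2 level of the 4 globin genes was ranked by the smaller of their Pearson correlations, 1 per table over 6 libraries. The first 6 were S100a9 (0.93 in the AAV table and 0.93 in the ribose table), Lcn2 (0.92 and 0.96), S100a8 (0.91 and 0.98), Camp (0.93 and 0.90), the histone gene Hist1h2ap (0.94 and 0.89) and Cd177 (0.91 and 0.88). S100a8 and S100a9 encode calprotectin, and Lcn2, Camp and Cd177 encode proteins of neutrophils. S100a8 stood at 26.0, 16.8 and 57.4 FPKM in AAV-GFP and at 3.64, 8.22 and 5.85 FPKM in AAV-TKT. In the ribose table it stood at 7.06, 27.9 and 8.55 FPKM in Vehicle and at 25.9, 2.40 and 16.5 FPKM in Ribose. S100a8 was separated between the AAV groups and overlapped between Vehicle and Ribose. It was chosen by likeness to the globins in these same libraries, so sharing their pattern is not a separate observation. Camp and Cd177 were listed in the AAV table through their AAV-GFP values. Such correlations describe 6 libraries that share groups and scaling.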

How the data were processed

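The authors deposited FPKM values, as a table for each experiment. The submitters' processing notes name bcl2fastq 2.20, FastQC, Trim Galore and the build GRCm38. Per the labels' protocols, polyadenylated RNA was made into stranded libraries. The aligner, the counter and the treatment of reads matching several genes: each is not given in the sources used here, and the last bears on the split between globin copies. In the AAV table every listed gene has a mean above 1 FPKM, so a gene low in AAV-TKT could be listed through AAV-GFP alone. This held for Alas2, Hp, Slc4a1, Camp, Elane, Mpo, Mmp8, Mmp9 and Cd177, and such listing favours separated groups. The columns headed Ctlr in the ribose table were taken as Vehicle, since no other group of that table is a control.

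Groups were compared within each table on log2(FPKM + 1) with limma 3.58.1 in R 4.3.3 (variance trend, Benjamini-Hochberg threshold of 0.05 over all genes), keeping genes whose mean reached 1 FPKM. The script was tested on simulated data. Ratios within libraries were compared with two-sided exact permutation tests in Python 3.11.15 with scipy 1.17.1, adjusted over 8 tests. All members were named, with up to 4 genes of smallest p from each red-cell, heme or iron list, up to 2 from other lists and the first 6 by likeness. The members, lists and tests were chosen with earlier results of these data known. Alternatives were a pseudocount of 0.1, equal totals, filters at 0 and 5 FPKM, scaling by the median of ratios, the replicate number as a block, other denominators for the ratios and each library left out in turn.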

Additional observations from a re-analysis of the deposited data

How the results depend on the processing

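The globins kept their direction in the AAV experiment under every alternative run. Alas2 did so wherever it was tested, since the filter at 5 FPKM left it out. Only the omission of AAV-GFP replicate 2 took the members past the threshold. The count of genes lower in AAV-TKT, 1 as reported, became 4 with a pseudocount of 0.1, 3 with a mean of at least 5 FPKM, 3 with equal totals and 0 with the replicate number as a block. Genes higher, 1 as reported, became 0 with the replicate block. Leaving out single libraries gave 0 to 38 genes lower and 1 to 2 higher. For Ribose, genes lower went from 0 to 1 with equal totals, and single omissions gave 0 to 1 lower and 1 to 3 higher. For the difference of effects, genes higher went from 1 to 2 with a pseudocount of 0.1, and single omissions gave 1 to 2 higher and 0 to 1 lower. The cause of these shifts was not tested.

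Signs were not stable for the members in Ribose. Hba-a1 was -0.042 with a pseudocount of 0.1. Over single omissions the log2 difference ran from -0.64 to 1.17 for Hba-a1, from -1.23 to 0.69 for Hba-a2, from -0.45 to 1.43 for Hbb-bs and from -0.74 to 0.93 for Hbb-bt. The alpha to beta difference in the AAV table ran from -0.14 to 0.015 over single omissions.

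Whether replicate numbers shared by the groups pair the libraries is not settled by these data. Deviations of same-numbered libraries correlated at 0.033, 0.071 and -0.014 in the AAV table and at 0.042, 0.36 and 0.16 in the ribose table. Not every library correlated best with its own number in the other group. Replicates 2 and 3 of Vehicle and of Ribose did, as did AAV-GFP replicates 1 and 2 and AAV-TKT replicate 2. With the replicate block no member passed in either table, with limma adjusted p of 0.352 to 0.361 in the AAV table.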

Other observations

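Globins of other kinds were listed beside the adult red-cell forms. Ngb, the neuroglobin of nerve cells, stood at 1.74 ± 0.130 FPKM in AAV-GFP and 2.27 ± 0.165 FPKM in AAV-TKT (SD, n = 3) without overlap, a log2 difference of 0.25 that did not pass (limma adjusted p = 0.479). Cygb, the cytoglobin of many tissues, stood at 15.7 ± 1.53 and 18.1 ± 1.23 FPKM. In the ribose table Ngb was at 2.56 ± 1.09 FPKM in Vehicle and 3.77 ± 1.23 FPKM in Ribose, and Cygb at 17.5 ± 4.84 and 17.9 ± 4.98 FPKM.

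The theta globin genes Hbq1a and Hbq1b lie in the alpha globin cluster. Hbq1b stood at 5.91, 2.07 and 5.48 FPKM in Vehicle and at 1.93, 1.40 and 0 FPKM in Ribose, without overlap, and its log2 difference of -1.43 did not pass (SE 0.496, limma adjusted p = 0.976). Hbq1a stood at 0, 0.281 and 0.328 FPKM in Vehicle and at 0, 1.62 and 3.45 FPKM in Ribose. In Ribose replicate 3, Hbq1b was listed at 0 while Hbq1a was at its highest, and the way reads were split between the pair was not tested. In the AAV table Hbq1b was at 3.48 ± 0.860 and 3.21 ± 0.332 FPKM (SD, n = 3).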
